A study of Mus musculus with 12 samples.

Results

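Differentiating C2C12 myocytes at day 2 (D2) that had received an siRNA against Kctd10 (siKctd10, 3 libraries) were compared with myocytes of the same day that had received a non-targeting siRNA (siControl, 3 libraries). These 6 libraries, chosen by their titles, are part of a series of 12. The other 6 hold the same siRNAs in undifferentiated myoblasts (D0, 3 libraries each). C2C12 is an established mouse myoblast line that stops dividing, makes muscle proteins and fuses into multinucleated fibres when serum is lowered. All cells were unmodified C2C12 apart from the siRNA, as far as the labels say. At D2 the medium was changed 24 h after the siRNA to DMEM with 2% horse serum, and cells were collected 48 h after differentiation began. At D0 cells were collected 48 h after the siRNA and were kept below confluence in DMEM with 10% fetal bovine serum. The model is 1 cell line with 1 siRNA sequence in each arm, and the labels do not say whether replicates came from separate cultures. The p-values thus reflect the scatter of these libraries alone, and that scatter may be technical. Poly(A) RNA was sequenced, and expression is given as TPM, a transcript level per length that is scaled to a total of 1000000 in each library. Of 25764 genes matched, 13074 had a TPM of at least 1 in at least 3 of the 12 libraries and were tested.

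KCTD10 is a BTB-domain adaptor that brings substrates to CUL3 ubiquitin ligases, which mark proteins for degradation or for a change of function. The series' title places this ligase in the remodelling of actin during cell fusion. In muscle precursors the transcription factors MYF5 and MYOD commit cells to the lineage, myogenin drives terminal differentiation, and the membrane proteins myomaker and myomerger carry out fusion. An siRNA lowers an mRNA that pairs with its whole guide strand, and a guide can also lower other mRNAs that pair with its seed, bases 2 to 8, in their 3′ UTR.

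The siRNA strands are shown because they define the target and the seed. The labels give the sense strand of each duplex, and the guide was written as its reverse complement, 5′ to 3′, with the seed in capitals.
siKctd10 sense strand: ccagcaauucugacgauaa
siKctd10 guide strand: uUAUCGUCagaauugcugg
siControl sense strand: ugguuuacauguuuucuga
siControl guide strand: uCAGAAAAcauguaaacca

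The siKctd10 sense strand was found in the coding sequence of Kctd10, on the minus strand of chromosome 5 (GRCm38, the same assembly as mm10). It lay across the junction of exon 5 (4 bases, 114368342 to 114368345) and exon 6 (15 bases, 114367390 to 114367404) in both annotated transcripts. Kctd10 read 285, 276 and 289 TPM in siControl libraries 1 to 3 and 34.3, 26.8 and 35.1 TPM in the siKctd10 libraries. Each siKctd10 library lay below each siControl library, and 11.3% of the control level was left (log2 difference of TPM + 1 -3.12, SE 0.11, limma adjusted p = 2e-06). An exact permutation test (two-sided) returned p = 0.1, the smallest that 3 against 3 allows. All other log2 differences below are likewise of TPM + 1, siKctd10 minus siControl, which understates the change of low genes.

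Among 21 measured genes of the KCTD family and the CUL3 ligase core, 1 fell, Kctd10 itself, and 1 rose. The one that rose was Klhl22 (3 transcripts), another CUL3 adaptor, at 20.3, 22.7 and 23.1 TPM in siControl and 33.1, 36.2 and 33.7 in siKctd10 (0.62, SE 0.09, limma adjusted p = 0.0054). With the D2 libraries alone in the fit its adjusted p was 0.053. Over all tested genes 4.75% passed the test at D2, 2.83% higher and 1.92% lower. The closest paralogs were not called. Tnfaip1 (2 transcripts) ran from 18.9 to 219.6 TPM and jumped within both groups, and Kctd13 ran from 14.8 to 30.3 TPM. Cul3 (2 transcripts) read 40.3, 29.6 and 37.7 TPM in siControl and 33, 127 and 40.9 in siKctd10 (adjusted p = 0.54). Of 10 reported substrates and partners of KCTD10, 1 was called, Cep97, a centriole protein (4 transcripts, 0.43, adjusted p = 0.047), and its call was lost whichever D2 library was left out (up to 0.14) and with the D2 libraries alone (0.13). Rhob, a small GTPase that is degraded through KCTD10, read 1346, 1320.4 and 1308 TPM in siControl and 1084, 1071 and 945 TPM in siKctd10. Its groups did not overlap, as in 28.4% of all tested genes. Its difference of -0.36 missed the threshold (SE 0.09, limma adjusted p = 0.057) and passed it under median-ratio scaling (0.016).

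A match to the siKctd10 seed (GACGAUA in the mRNA) stood in the 3′ UTR of 102 of 11961 tested genes with an annotated 3′ UTR (0.853%). It was found in 9 of the 241 such genes that were lower at D2 (3.73%), in 2 of 360 that were higher (0.556%), and in 91 of 11360 that were not called (0.801%). Among genes lower on both days the share was 6 of 42 (14.3%). The siControl seed match was far more common, in 28% of all and in 33.6% of higher and 26.6% of lower genes. The median difference of all genes with the siKctd10 match was 0.01, against 0.08 without it. Sites in 4 of the 9 lower genes are shown, with 11 bases on each side and the seed match in capitals (GRCm38).
Mboat1 3′ UTR, chr13:30246528-30246556, plus strand: uuuaaaaugugGACGAUAauaauaaugau
Cd164 3′ UTR, chr10:41529968-41529996, plus strand: agauuuccaauGACGAUAcccuggcugaa
Scd2 3′ UTR, chr19:44306255-44306283, plus strand: agucccacucuGACGAUAaugaguucacu
Ube2j1 3′ UTR, chr4:33051424-33051452, plus strand: acugagugcuaGACGAUAaucucccaguu

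Mboat1, a lysophospholipid acyltransferase, read 32.7, 31.8 and 30.5 TPM in siControl and 12.7, 17.8 and 13.9 in siKctd10 at D2 (-1.06, limma adjusted p = 0.0043), and its difference at D0 was -2.40. Cd164, a sialomucin that promotes myoblast migration and fusion, read 1247, 1387 and 1381 TPM in siControl and 762, 806 and 736 in siKctd10 (-0.80, adjusted p = 0.00053; D0 -1.04). Scd2, a stearoyl-CoA desaturase (2 transcripts), read 1928, 2090.0 and 2080.4 TPM in siControl and 1170.3, 1264 and 1203 in siKctd10 (-0.74, adjusted p = 0.00017; D0 -0.96). In these 3 genes the highest siKctd10 value was under the lowest siControl value. Ube2j1, a ubiquitin-conjugating enzyme of the endoplasmic reticulum, differed less at D2 (-0.42, adjusted p = 0.046) than at D0 (-1.58), and its D2 call was lost whichever D2 library was left out (up to 0.14). The other 5 were Nsmce3, a subunit of the SMC5/6 complex (-0.71), Prdm8, a PRDM family factor (-0.62), Fam171b (-0.62), Gtpbp8, a GTP-binding protein (2 transcripts, -0.61), and 4833439L19Rik (6 transcripts, -0.34). The calls of Nsmce3, Fam171b and Gtpbp8 were lost whichever D2 library was left out (up to 0.14 in each), that of 4833439L19Rik in all such fits but the one without siKctd10 1 (up to 0.064), and that of Prdm8 without siControl 1 or 3 or siKctd10 1 or 2 (up to 0.073). With the D2 libraries alone Fam171b (0.092), Gtpbp8 (0.066), 4833439L19Rik (0.081), Prdm8 (0.1) and Ube2j1 (0.12) were not called. Whether these falls came through the seed was not tested.

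The libraries held 12.51 to 18.08 times 1000000 assigned read pairs, estimated from coverage, and in each 12022 to 12601 genes reached a TPM of 1. The days parted along the first principal component (41.1% of the variance). The second (10.4%) separated the siRNAs, and the siKctd10 libraries numbered 3 lay farthest out on it, both at -42.4, against -1 to -20.5 for the other siKctd10 libraries and 16.2 to 26.2 for siControl. The D2 libraries carried the muscle label in their RNA: Myog was at 178 to 364 TPM at D2 against 9.1 to 14.3 at D0, and Actc1 at 675 to 1213 against 13.5 to 22.6. The leukocyte genes Ptprc and Adgre1, the endothelial gene Kdr and the osteoblast genes Bglap and Ibsp were listed at 0 in every library. Other genes of the same marker lists were not. The leukocyte marker Cd14 ran from 21.7 to 46.6 TPM over all libraries and the osteoblast marker Runx2 from 23.1 to 61.4. The endothelial marker Tek ran from 0.515 to 1.51 TPM at D2. Of 9 myoblast and myocyte markers 5 fell, and no leukocyte (2 measured) or osteoblast marker (2 measured) was called. In bulk RNA, fewer cells of a type and less RNA per cell cannot be told apart.

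At D2, 370 genes rose and 251 fell with siKctd10 (621 of 13074, 4.75%), with a median absolute log2 difference of 0.73. A rise past 2-fold was seen in 81 of them and a fall past 2-fold in 78. The siControl and siKctd10 libraries did not overlap in any of the 621, against no overlap in 28.4% of all tested genes. The median of all genes was 0.079. Genes with 1 transcript that shares no exon base with another, whose estimates are the most secure, rose and fell equally often (118 each of 3418, 6.9% called), while the other 9656 genes gave 252 rises and 133 falls. The split between rises and falls depended on scaling: 265 rose and 407 fell after median-ratio scaling, 297 and 341 after quantile normalization, and 283 and 324 with voom on estimated read pairs. No call changed its sign under any setting tried. As the groups did not overlap in any called gene, only the other scalings could have changed one.

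Leaving out 1 of the 6 D2 libraries gave 315 calls (without siControl 1), 347 (siControl 2), 415 (siControl 3), 362 (siKctd10 1), 406 (siKctd10 2) and 376 (siKctd10 3). The D2 libraries alone gave 252 calls, and leaving out the siKctd10 libraries numbered 3 of both days gave 443. A fit with a replicate block, which takes the replicate number as a factor within each day, gave 94. Calls lost under that block are not listed gene by gene. The genes named below passed in each of the 6 fits without 1 D2 library and with the D2 libraries alone, unless their paragraph says otherwise. Some of the genes that fell are hardly made in undifferentiated cells: 63 of the 251 (25.1%) had a mean TPM under 1 in both D0 groups, against 25 of the 370 that rose (6.76%) and 734 of all 13074 genes (5.61%). A gene near 0 at D0 that falls at D2 can pass the TPM filter through the D2 siControl libraries alone, so these shares depend on the filter. The median D0 siControl level was 10.7 TPM for the genes that fell and 19.5 TPM for all tested genes.

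**Figure D1:**
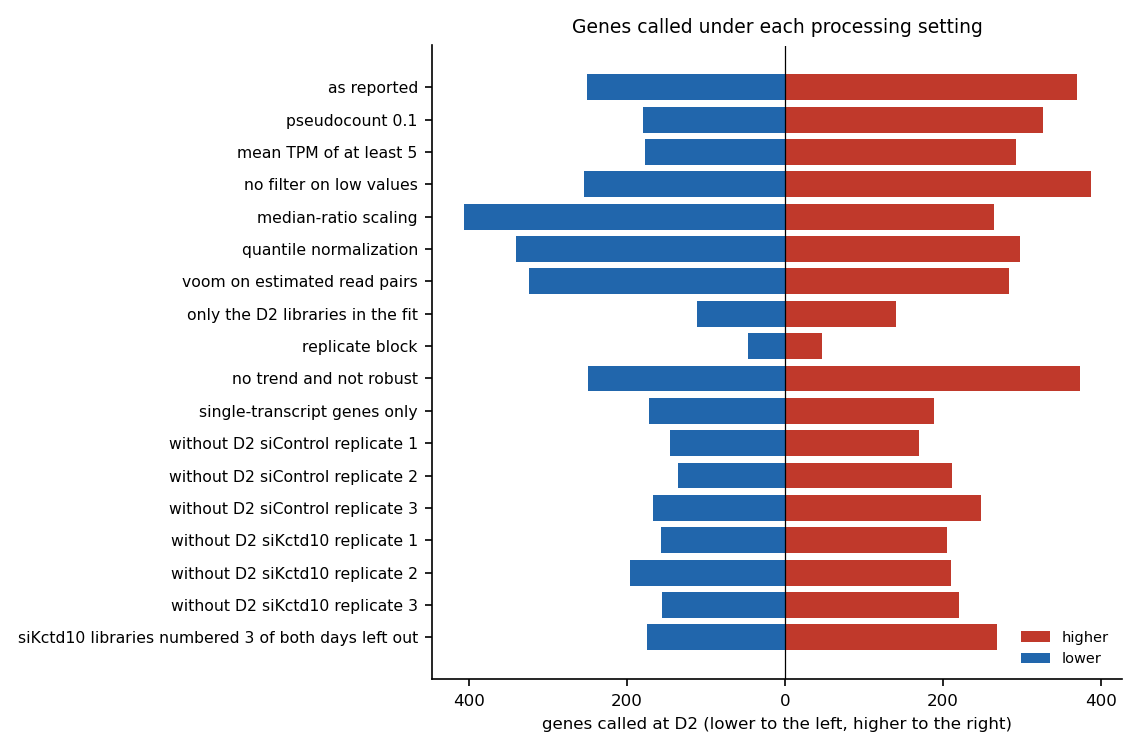
Number of genes called at D2 under each processing setting, falls to the left and rises to the right of 0. The 621 calls as reported (370 higher, 251 lower) were 672 after median-ratio scaling, where falls outnumbered rises. They were 252 with the D2 libraries alone and 94 with a replicate block.

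Of 23 myogenic transcription factors measured, 5 fell and 1 rose, with a median of -0.13 (0.079 over all genes). Myf5, the earliest lineage factor, read 153, 171 and 189 TPM in siControl and 115, 115 and 113 in siKctd10 (-0.57, SE 0.08, limma adjusted p = 0.005). Myod1, which commits cells to muscle, read 254, 240.1 and 241 TPM in siControl and 189.5, 200.2 and 179 in siKctd10 (-0.37, SE 0.06, adjusted p = 0.0091). The 3 siKctd10 libraries lay below the 3 siControl libraries for both genes. Both had passed with any single library left out, but with the D2 libraries alone in the fit Myf5 had an adjusted p of 0.051 and Myod1 of 0.071. Myog, encoding myogenin, read 364, 314 and 292 TPM in siControl and 183, 216 and 178 in siKctd10 (-0.75, SE 0.14, adjusted p = 0.016). Its groups did not overlap either, yet its call was lost without siControl 1 (0.065), siControl 2 (0.052), siKctd10 1 (0.061) or siKctd10 3 (0.06).

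Mef2c, a MADS-box factor that acts with myogenin (7 transcripts), read 26.3, 17.9 and 18 TPM in siControl and 9.54, 5.16 and 5.13 in siKctd10 (-1.54, adjusted p = 0.0058, with the D2 libraries alone 0.066). Its leading transcript held from 0 to 92% of its TPM, so its level is uncertain. Msc, the bHLH repressor musculin, fell from 26.3, 20.6 and 21.8 TPM to 6.32, 7.77 and 5.86 (-1.64, adjusted p = 0.003). Eya4, a transcriptional cofactor and phosphatase (3 transcripts), was the gene of this group that rose, from 32.4, 40.7 and 38.6 TPM to 68.9, 68.3 and 68.6 (0.87, adjusted p = 0.0021). Of these 6 factors only Msc was also called at D0 (-1.09).

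Of 27 fusion and myoblast adhesion genes, 4 fell and 1 rose (median -0.13). Mymk, encoding the fusogen myomaker (2 transcripts), read 177, 151 and 198 TPM in siControl and 87.4, 102 and 85.8 in siKctd10 (-0.92, SE 0.16, limma adjusted p = 0.012). Mymx, encoding its partner myomerger (4 transcripts), read 46.3, 57.7 and 50.2 TPM in siControl and 29, 37.8 and 32.3 in siKctd10, and it was not called (-0.63, SE 0.26, adjusted p = 0.23). The groups did not overlap for either fusogen, which was so in 28.4% of all tested genes. Itga4, an integrin subunit that binds VCAM1 on myoblasts (5 transcripts), fell from 35.6, 43.9 and 41.7 TPM to 9.6, 11.6 and 8.84 (-1.91, SE 0.14, adjusted p = 0.00014). Cd164 fell as given above. Ccdc141 (4 transcripts) fell by 0.64, lost without siControl 2 (0.066), siKctd10 1 (0.07) or siKctd10 3 (0.052) and with the D2 libraries alone (0.069). Cdh2, the adhesion molecule N-cadherin, was called higher (0.45, adjusted p = 0.038), lost without each library but siControl 2 (up to 0.13), with the D2 libraries alone (0.15) and under median-ratio scaling (0.06).

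Of 34 integrins and focal adhesion genes 3 fell and 1 rose. Itga3, a laminin-binding subunit (3 transcripts), rose from 50.3, 54.8 and 54.8 TPM to 92.9, 109 and 94 (0.87, limma adjusted p = 0.0011). The laminin-binding subunits of muscle were called lower. Itga7 (3 transcripts) read 519.6, 538 and 552 TPM in siControl and 395, 390.3 and 328 in siKctd10 (-0.54, adjusted p = 0.015), and Itga6 (6 transcripts) 76.4, 81.7 and 93.3 against 48.9, 52.1 and 49.2 (-0.73, adjusted p = 0.014). Without siControl 3 both missed the threshold (0.052 each), as did Itga6 without siKctd10 1 (0.052) and Itga7 without siControl 2 (0.053) or with the D2 libraries alone (0.055).

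Of 14 striated myosin chains 13 were below 0, the median was -0.60, and 1 fell, Myh8, the perinatal heavy chain (8 transcripts, -1.53, limma adjusted p = 0.00022). It was at 16.4, 16.2 and 18.7 TPM in siControl and 4.54, 5.06 and 6.34 in siKctd10. Myh3, embryonic myosin (3 transcripts), read 332, 339.9 and 299 TPM in siControl but 199, 234 and 612 in siKctd10, so that siKctd10 3 stood above every control (-0.08, adjusted p = 0.95). Mylpf, the fast regulatory light chain, read 1109, 1160.0 and 1240.5 TPM in siControl and 637, 747 and 564 in siKctd10. Its D2 groups did not overlap, as in 28.4% of all tested genes. However, its D0 levels of 0 to 8.79 TPM widened the shared spread (-0.86, SE 0.83, adjusted p = 0.62), and with the D2 libraries alone the adjusted p was 0.034. Myl1, an essential light chain (3 transcripts), read 324, 274 and 233 TPM in siControl and 13.1, 140.1 and 86.6 in siKctd10 (-2.30, adjusted p = 0.092), and was called without siKctd10 1 (0.023) or siKctd10 2 (0.037).

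Of 23 thin filament genes 5 fell and 1 rose (median -0.30, 17 below 0). Tmod1, tropomodulin 1, which caps the pointed ends of sarcomeric actin (2 transcripts), read 48.9, 42.4 and 33.3 TPM in siControl and 3.31, 2.59 and 0.909 in siKctd10 (-3.77, SE 0.28, limma adjusted p = 0.00014). Klhl41, a BTB-kelch adaptor of CUL3 that stabilises nebulin, read 116, 118 and 106 TPM in siControl and 47.8, 64.5 and 41.2 in siKctd10 (-1.15, SE 0.17, adjusted p = 0.0054). In both genes the groups lay well apart. Actc1, cardiac actin, read 1196, 1213 and 1113 TPM in siControl and 675, 722 and 684 in siKctd10 (-0.76, SE 0.15, adjusted p = 0.019). Its call was lost without siControl 1 (0.069), siControl 2 (0.068), siKctd10 1 (0.067), siKctd10 2 (0.05) or siKctd10 3 (0.062). Tnni1, slow troponin I (4 transcripts, -2.03, adjusted p = 0.019), and Xirp1, an actin-binding Xin repeat protein (-0.61, adjusted p = 0.018), lost theirs in 5 of the 6 such fits (all but siControl 3 for Tnni1 and siKctd10 2 for Xirp1, up to 0.074 and 0.069) and with the D2 libraries alone (0.071 and 0.072). Acta1, skeletal actin (2 transcripts), read 1513, 1391 and 1223 TPM in siControl and 885, 969 and 872 in siKctd10 without passing the test (-0.59, adjusted p = 0.065), and passed it under median-ratio scaling (0.036) and voom (0.019). Tpm1, alpha tropomyosin, which also has non-muscle forms (12 transcripts), rose from 612, 646 and 514 TPM to 854, 957 and 1094 (0.71, adjusted p = 0.01, with the D2 libraries alone 0.066).

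Of 28 Z-disc, M-band and titin-linked genes 7 fell and none rose (median -0.32). Smpx, a costamere protein (3 transcripts), fell from 61.1, 66.5 and 49.1 TPM to 23.1, 16.3 and 16.3 (-1.62, limma adjusted p = 0.0038, with a pseudocount of 0.1 0.21). Pdlim3 (3 transcripts), a Z-disc protein that binds alpha-actinin, fell from 284, 303 and 266 TPM to 185, 193 and 155 (-0.68, adjusted p = 0.0084). Ldb3, encoding the related protein ZASP (7 transcripts), fell from 46.5, 53.5 and 50.9 TPM to 29.4, 33.9 and 31.1 (-0.66, adjusted p = 0.0095). In these 3 genes the highest siKctd10 library lay below the lowest siControl library. Myom3 (2 transcripts), an M-band myomesin, fell by 1.14 (adjusted p = 0.0046, with the D2 libraries alone 0.065). Actn2, sarcomeric alpha-actinin (2 transcripts, -1.14), lost its call without siKctd10 3 (0.054) and with the D2 libraries alone (0.12). Myoz2, a calcineurin-binding Z-disc protein (2 transcripts, -1.38), lost its call without siControl 2 (0.076), siControl 3 (0.072), siKctd10 1 (0.076) or siKctd10 3 (0.082), and with the D2 libraries alone (0.14). The list had 5 to 7 falls when 1 D2 library was left out and 8 to 9 under the 3 other scalings.

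**Figure D2:**
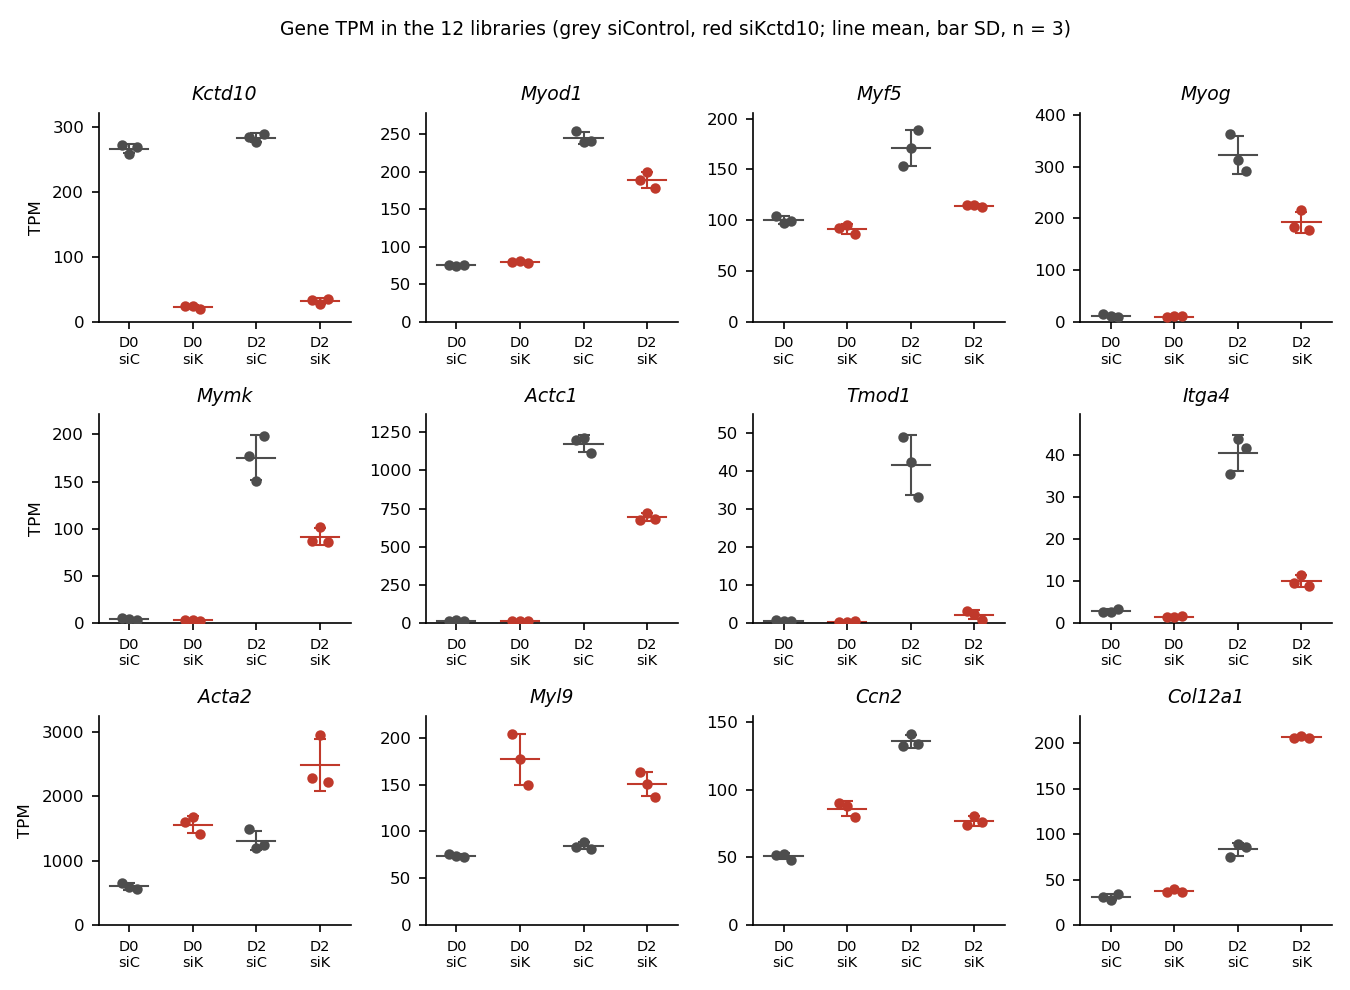
TPM of 12 genes in each of the 12 libraries, siControl (siC, grey) and siKctd10 (siK, red) at D0 and D2. Points are libraries, the line is the mean and the bar the SD (n = 3). Myf5, Myog, Mymk, Actc1 and Tmod1 were lower with siKctd10 at D2, Acta2, Myl9 and Col12a1 were higher, and Ccn2 was higher at D0 and lower at D2.

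Of 23 genes of excitation-contraction coupling 4 fell and none rose (median -0.25). Atp2a1, the calcium pump SERCA1, read 110.3, 94.8 and 93.8 TPM in siControl and 29.5, 51.3 and 36.4 in siKctd10 (-1.36, SE 0.21, limma adjusted p = 0.0061). Casq1, the calcium store protein calsequestrin (2 transcripts), fell from 10.1, 8.18 and 8.06 TPM to 2.5, 2.39 and 1.95 (-1.58, adjusted p = 0.00027, with a pseudocount of 0.1 0.055). No siKctd10 library reached a control level in either gene. Cav3, muscle caveolin (-1.17), and Hrc, a calcium-binding protein of the reticulum (-0.81), were called lower. Each lost its call in 5 of the 6 fits without 1 library, Cav3 in all but that without siKctd10 2 (up to 0.096) and Hrc in all but that without siKctd10 3 (up to 0.12), and Hrc also with the D2 libraries alone (0.16). With a pseudocount of 0.1 neither passed (0.47 and 0.11).

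Of 16 genes of the acetylcholine receptor and neuromuscular junction 2 rose and 2 fell. Kcnj2, the inward-rectifier potassium channel Kir2.1 that hyperpolarises myoblasts (2 transcripts), read 24.9, 25.4 and 28.1 TPM in siControl and 77.6, 75.2 and 78.7 in siKctd10 (1.53, SE 0.07, limma adjusted p = 1e-05). Lrp4, the agrin receptor (4 transcripts), rose from 52.6, 60.5 and 56.8 TPM to 112, 117 and 111 (0.99, adjusted p = 0.00035). The controls stayed far below the siKctd10 libraries in both. Dok7, the cytoplasmic activator of MuSK (4 transcripts), fell from 24.4, 27 and 24.4 TPM to 13.9, 14.5 and 11.3 (-0.89, adjusted p = 0.0072). Scn4a, the adult muscle sodium channel, fell by 0.71 (adjusted p = 0.0042, with the D2 libraries alone 0.054 and with a pseudocount of 0.1 0.092). Piezo2, a mechanosensitive channel (6 transcripts), rose from 12.7, 13.5 and 13.7 TPM to 24.7, 25.9 and 21.7 (0.81, adjusted p = 0.003).

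Among 31 genes of creatine, glycogen and glycolysis 4 fell and none rose. Ckb, brain-type creatine kinase, which is made early in differentiation, read 411, 372 and 334 TPM in siControl and 183, 202 and 160.2 in siKctd10 (-1.03, SE 0.13, limma adjusted p = 0.0025). Ckm, muscle creatine kinase, read 34.6, 39.2 and 47.4 TPM in siControl and 15.4, 30.3 and 20.9 in siKctd10 and was not called (-0.88, adjusted p = 0.06), but was called without siKctd10 2 (0.021) and under each of the 3 other scalings (0.033 to 0.038). Pgam2, muscle phosphoglycerate mutase, and Pygm, muscle glycogen phosphorylase, were called lower (-1.31 and -1.11), and each lost its call in 5 of the 6 fits without 1 library (all but siKctd10 3 for Pgam2 and siKctd10 2 for Pygm, up to 0.1 and 0.093), with the D2 libraries alone (0.098 and 0.095) and with a pseudocount of 0.1 (0.076 and 0.31). Gatm, which makes the creatine precursor (-0.44), lost its call without siControl 2 (0.066), siControl 3 (0.068), siKctd10 2 (0.065) or siKctd10 3 (0.06), and with the D2 libraries alone (0.058).

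Of 29 genes of pyruvate and fatty acid use 2 rose and 3 fell. Pdk4, the kinase that shuts off pyruvate dehydrogenase, rose from 18.9, 22.8 and 20.5 TPM to 63.4, 58.3 and 61.4 (1.51, SE 0.10, limma adjusted p = 9.1e-05). Txnip, an inhibitor of glucose uptake (2 transcripts), fell from 219, 231 and 221 TPM to 153, 155 and 133 (-0.61, adjusted p = 0.0052). Cd36, a fatty acid transporter (5 transcripts), fell from 1.81, 1.4 and 1.67 TPM to 0.468, 0.594 and 0.763 (-0.71, adjusted p = 0.0071, with the D2 libraries alone 0.081 and with a pseudocount of 0.1 0.093). Fbxo32, the ubiquitin ligase atrogin-1 and a FOXO target like Pdk4, read 37.8, 45.1 and 49.5 TPM in siControl and 86.6, 89.4 and 82.8 in siKctd10 (0.96, adjusted p = 0.0027). Of 18 FOXO and atrophy genes 2 rose and none fell, and the other, Gabarapl1 (2 transcripts, 0.31), was lost whichever library was left out (up to 0.12), with the D2 libraries alone (0.12) and under each of the 3 other scalings (0.12 to 0.14).

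The actin machinery on which cell fusion draws showed no call in its branched and protrusive part. Of 37 such genes none passed the limma test, against 4.75% of all tested genes, a difference too small in so short a list to set it apart. The list's median was 0.07, and -0.02 under each of the 3 other scalings. In the limma fit 2 had an unadjusted p under 0.05, and voom called none. Estimates in this list were often unsteady: 8 of the 37 (21.6%) ranged over more than 3-fold within a D2 group, against 12.4% of all genes. Actr3, a subunit of the Arp2/3 complex (3 transcripts), read 12.3, 32.5 and 603 TPM in siControl, and Eps8, an actin capping and bundling protein (6 transcripts), 3.77, 58.4 and 52.4. Such values do not allow a difference in these genes to be seen.

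Among 33 actin capping, severing and turnover genes 4 fell and 2 rose. Leaving out 1 D2 library gave 2 to 3 falls and 0 to 1 rises in this list. The rises were Ssh1 (4 transcripts, 0.47) and Cotl1 (0.44). Both calls were lost with the D2 libraries alone (0.077 and 0.12) and after median-ratio scaling (0.054 and 0.066). Capza1, a subunit of the barbed-end capping protein, stood at 188, 175 and 249 TPM in siControl and 79.3, 73.7 and 74.5 in siKctd10 (-1.40, SE 0.16, limma adjusted p = 0.0016). It was lower by 1.96 at D0 as well. Cfl2, muscle cofilin, was called lower (-0.50, adjusted p = 0.025), lost without each library but siKctd10 1 (up to 0.087) and with the D2 libraries alone (0.088).

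Of 30 smooth muscle type and cytoplasmic contractile genes 5 rose and none fell (median 0.20, from 0.1 to 0.17 under the other scalings). Acta2, smooth muscle actin, which myoblasts make before they mature, read 1489, 1205 and 1244 TPM in siControl and 2285, 2947 and 2222 in siKctd10 (0.91, SE 0.13, limma adjusted p = 0.0045). Myl9, the regulatory light chain of non-sarcomeric myosin, read 83, 88.8 and 81.7 TPM in siControl and 163, 151 and 137 in siKctd10 (0.82, SE 0.11, adjusted p = 0.0038). Tagln, the actin-binding protein transgelin, read 118, 118 and 101 TPM in siControl and 182, 165 and 195 in siKctd10 (0.68, SE 0.11, adjusted p = 0.0077). All siKctd10 libraries exceeded all controls in the 3 genes, which rose at D0 too (1.38, 1.24 and 1.40). Cnn2, calponin 2, rose by 0.35 (adjusted p = 0.017), lost without each library but siKctd10 3 (up to 0.063), and Actn1, non-muscle alpha-actinin (3 transcripts), by 0.80, lost without siControl 1 (0.05) or siControl 2 (0.052). Among 6 smooth muscle markers, 5 were measured and 2, Acta2 and Tagln, rose, while Myh11, smooth muscle myosin, stood at 0 to 0.0258 TPM in the D2 libraries.

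Of 37 targets of SRF and its actin-sensing cofactors MRTF 6 rose and none fell (median 0.19), while 1 fell under each of the 3 other scalings. The 6 were Acta2, Myl9, Tagln, Cnn2 and Tpm1, given above, and Fosb, an early response factor (0.70), whose call was lost without each library but siKctd10 1 (up to 0.11) and with the D2 libraries alone (0.12). Of 34 targets of the mechanosensitive factors YAP and TEAD, 9 rose and 2 fell (median 0.31). Leaving out 1 D2 library gave 2 to 5 genes called higher in this list. Ankrd1, a stretch-induced nuclear and titin-bound protein, read 460, 429 and 397 TPM in siControl and 603, 677 and 850.1 in siKctd10 (0.71, limma adjusted p = 0.033). Its groups did not overlap, but the call was lost without each library but siKctd10 1 (up to 0.1), with the D2 libraries alone (0.078), after median-ratio scaling (0.073) and with voom (0.062). Igfbp3, an IGF-binding protein, rose by 0.67 (adjusted p = 0.012), lost without siControl 1 (0.05) and with the D2 libraries alone (0.075). Ccn2, connective tissue growth factor, ran against the list, at 132, 141 and 134 TPM in siControl and 73.9, 80.5 and 75.8 in siKctd10 (-0.81, SE 0.08, adjusted p = 0.00048).

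**Figure D3:**
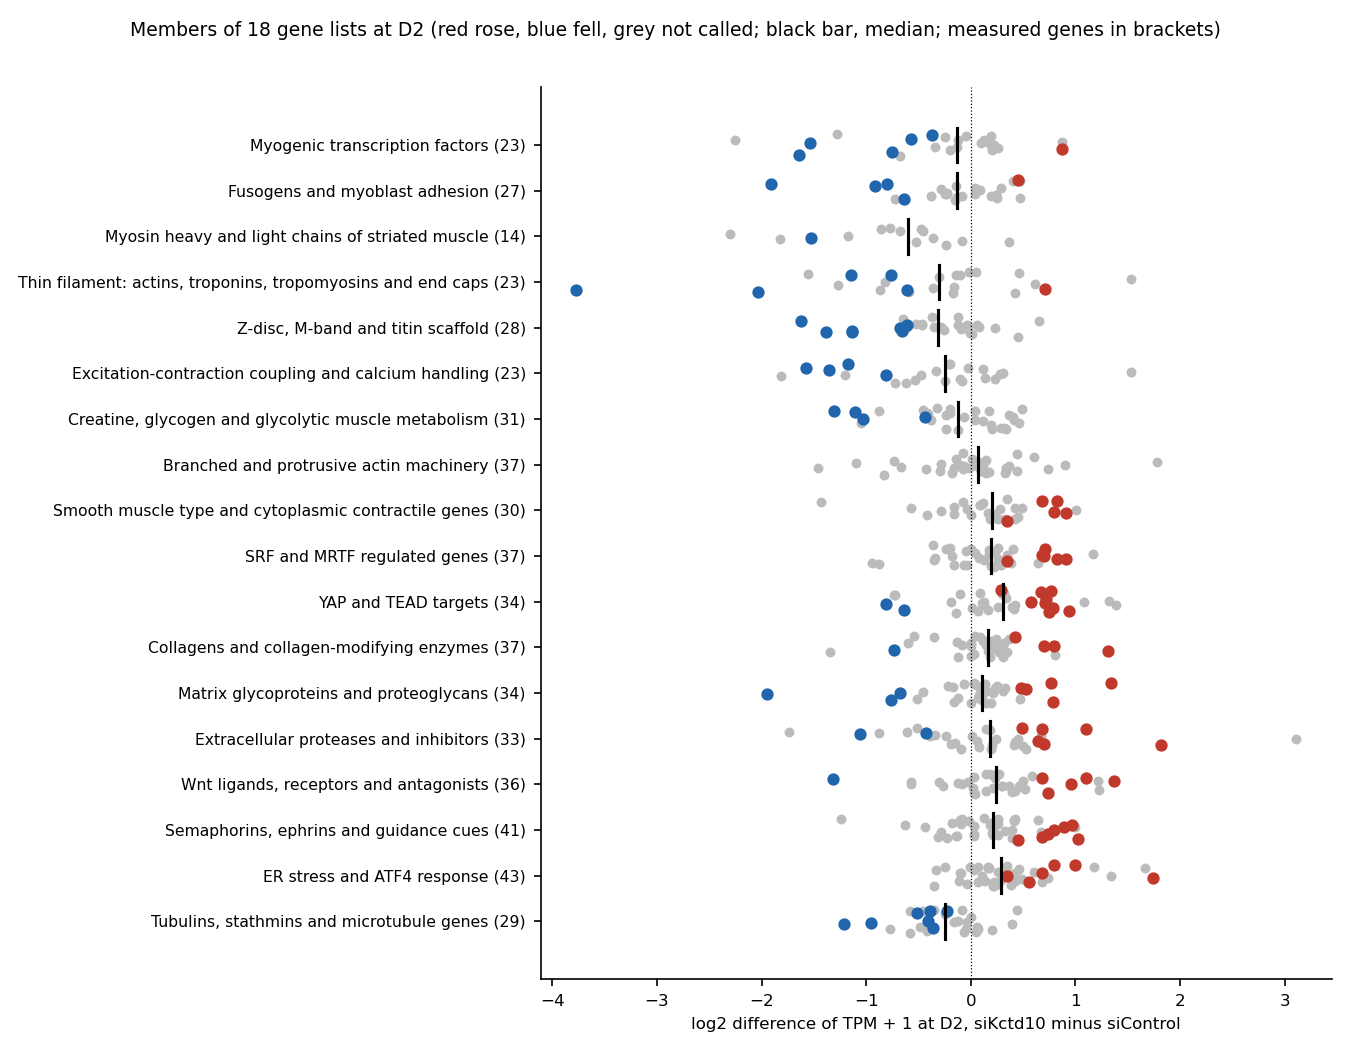
Log2 difference at D2 (siKctd10 minus siControl) of each measured member of 18 gene lists, with the number of measured genes in brackets. Red points rose, blue fell, grey were not called, and the black bar is the list's median. Medians run from -0.60 for striated myosins to 0.31 for YAP and TEAD targets.

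Promoters are shown for 2 genes that rose (Acta2 and Myl9) and 2 that fell (Klhl41 and Actc1), as RefSeq windows of GRCm38.p6 from 250 bases before the start site to 50 after it. Capitals mark matches, on either strand, to the E-box CANNTG bound by MYOD and myogenin and to the CArG box bound by SRF. They also mark the MCAT element CATTCC bound by TEAD and the A/T-rich MEF2 site. Only the strict CArG form CCWWWWWWGG, with A or T at each W, was searched.
Acta2 promoter, chr19:34255324-34255623, minus strand: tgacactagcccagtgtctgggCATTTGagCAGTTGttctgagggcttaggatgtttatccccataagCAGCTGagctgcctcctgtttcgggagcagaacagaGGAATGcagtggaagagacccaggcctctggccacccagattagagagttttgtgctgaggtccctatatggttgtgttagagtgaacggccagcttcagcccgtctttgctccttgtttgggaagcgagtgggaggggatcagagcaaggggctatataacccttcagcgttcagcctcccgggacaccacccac
Myl9 promoter, chr2:156775214-156775513, plus strand: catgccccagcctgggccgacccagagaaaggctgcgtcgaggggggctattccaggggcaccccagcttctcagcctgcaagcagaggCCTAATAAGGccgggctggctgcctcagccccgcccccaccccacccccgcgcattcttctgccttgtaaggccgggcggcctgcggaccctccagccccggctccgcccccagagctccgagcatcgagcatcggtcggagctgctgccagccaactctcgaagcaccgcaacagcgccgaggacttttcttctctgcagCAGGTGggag
Klhl41 promoter, chr2:69669870-69670169, plus strand: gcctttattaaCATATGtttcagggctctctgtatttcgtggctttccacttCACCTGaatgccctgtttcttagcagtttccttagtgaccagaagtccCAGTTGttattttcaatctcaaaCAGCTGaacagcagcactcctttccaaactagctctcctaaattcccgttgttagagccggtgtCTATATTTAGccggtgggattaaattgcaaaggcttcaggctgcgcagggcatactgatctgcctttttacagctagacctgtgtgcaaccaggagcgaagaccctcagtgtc
Actc1 promoter, chr2:114052826-114053125, minus strand: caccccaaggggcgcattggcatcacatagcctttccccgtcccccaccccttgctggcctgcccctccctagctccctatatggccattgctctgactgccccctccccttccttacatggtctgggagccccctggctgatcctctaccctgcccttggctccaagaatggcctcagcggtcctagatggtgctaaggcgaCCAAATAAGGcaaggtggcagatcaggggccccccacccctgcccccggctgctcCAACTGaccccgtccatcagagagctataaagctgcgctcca

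Acta2 held 3 E-boxes, 1 of them CAGCTG, and 1 MCAT element in this window, and Myl9 held 1 CArG box, 161 bases before the start, and 1 E-box. Klhl41 held 4 E-boxes, 1 of them CAGCTG, and 1 MEF2 site 63 bases before the start. Actc1 held 1 CArG box, 47 bases before the start, and 1 E-box. The E-box stood in 72.3% of 32851 promoter windows of this length, CAGCTG in 16.3%, MCAT in 14.7%, the CArG box in 1.63% and the MEF2 site in 1.86%. The strict CArG form was found in 1 of the 2 genes that rose and in 1 of the 2 that fell. Near matches were not counted: Acta2 and Actc1 both hold ccctatatgg, which departs from that form in 1 base. Whether SRF binds any of these sites was not tested.

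Of 37 collagen genes 4 rose and 1 fell. Col12a1, a fibril-associated collagen (2 transcripts), read 75.1, 89.1 and 85.5 TPM in siControl and 206, 208 and 206 in siKctd10 (1.31, SE 0.09, limma adjusted p = 0.00014). Col4a2, of basement membranes, rose from 50.7, 49.8 and 44.6 TPM to 75.9, 78.4 and 83.1 (0.70, adjusted p = 0.0029). The siKctd10 libraries of both genes were close together and above every control. Col8a2 (0.80, adjusted p = 0.024) lost its call without each library but siKctd10 3 (up to 0.083) and with the D2 libraries alone (0.071).

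Of 34 matrix glycoproteins and proteoglycans 5 rose and 3 fell (23.5% called, against 4.75% of all tested genes). Leaving out 1 D2 library gave 1 to 2 rises and 3 falls in this list. Dpt, dermatopontin, which binds decorin, fell from 8.43, 6.4 and 7.07 TPM to 1.25, 0.981 and 1.18 (-1.95, SE 0.13, limma adjusted p = 9.3e-05). Sdc4, the proteoglycan syndecan 4, rose from 312, 313 and 338 TPM to 422, 471 and 452 (0.48, adjusted p = 0.0063). Of 23 CCN and other matricellular genes 3 rose and 2 fell, and the falls were Ccn2 and Ccn3. Ccn3, which restrains myogenic differentiation, stood at 224, 223 and 227 TPM in siControl and 41.7, 37.8 and 41.8 in siKctd10 (-2.45, SE 0.12, adjusted p = 1e-05). Thbs1, thrombospondin 1 (2 transcripts), read 829, 793 and 859.7 TPM in siControl and 1814, 3491 and 1858 in siKctd10 (1.46, SE 0.28, adjusted p = 0.019), lost without siControl 1 (0.064), siControl 2 (0.066) or siControl 3 (0.053) and with the D2 libraries alone (0.069). Tnc, tenascin C (3 transcripts), was called higher (0.65, adjusted p = 0.014), lost without siControl 1 (0.056) and with the D2 libraries alone (0.06).

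Of 33 extracellular proteases and inhibitors 6 rose and 2 fell, and leaving out 1 D2 library gave 0 to 4 rises. Mmp2, gelatinase A, read 242, 240.3 and 233 TPM in siControl and 416, 376 and 357 in siKctd10 (0.68, limma adjusted p = 0.023). Mmp14, the membrane protease that activates it, read 773, 677 and 710 TPM in siControl and 1093, 1125 and 831 in siKctd10 (0.49, adjusted p = 0.042). Neither gene's groups overlapped, but without each library but siKctd10 3 the calls were lost (up to 0.08 and 0.13), and that of Mmp14 also with the D2 libraries alone (0.15) and after median-ratio scaling (0.088). Adamts15, a versican-cleaving protease that favours fusion (2 transcripts), fell from 10.2, 9.69 and 10.1 TPM to 3.74, 5.11 and 4.06 (-1.06, SE 0.13, adjusted p = 0.0024).

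Of 23 chemokines and cytokines 2 rose and 2 fell. Cxcl5, a neutrophil chemokine, read 13.3, 13.4 and 14 TPM in siControl and 49.7, 42.8 and 57.2 in siKctd10 (1.79, SE 0.11, limma adjusted p = 6.8e-05). Cxcl13, a B cell chemokine, read 66.6, 61.7 and 59.1 TPM in siControl and 12.7, 12.7 and 9.62 in siKctd10 (-2.33, SE 0.19, adjusted p = 0.00022). The groups did not overlap in either chemokine.

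Of 36 Wnt ligands, receptors and antagonists 5 rose and 1 fell (median 0.24). Sfrp2, a secreted Wnt modulator, rose from 34.8, 29.9 and 33.9 TPM to 95.1, 85 and 80.3 (1.37, SE 0.11, limma adjusted p = 0.00022). Dkk2, a secreted LRP5/6 ligand, fell from 50.1, 52.3 and 50.7 TPM to 17.1, 21.7 and 21.3 (-1.32, SE 0.11, adjusted p = 0.00022). The groups lay far apart in both. Among receptors, Fzd1 rose from 158, 162 and 146 TPM to 268, 252 and 227 (0.68, adjusted p = 0.005), and Lgr5, an R-spondin receptor (3 transcripts), from 1.04, 0.794 and 0.855 to 2.64, 2.57 and 2.83 (0.96, adjusted p = 0.0038, with a pseudocount of 0.1 0.057). Leaving out 1 D2 library gave 3 to 4 rises and 1 fall in the list.

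Bmp4, a BMP ligand (2 transcripts), read 10.3, 10.9 and 11.7 TPM in siControl and 73.2, 69.2 and 75.1 in siKctd10 at D2 (2.61, SE 0.50, limma adjusted p = 0.018). Its SE was set by wide D0 values (4.31 to 19.1 TPM), and its call was lost without siControl 1 (0.063), siControl 2 (0.058), siKctd10 1 (0.058), siKctd10 2 (0.051) or siKctd10 3 (0.057). Of 37 TGF beta and BMP genes 3 rose and none fell (8.11% called, against 4.75% of all tested genes). Leaving out 1 D2 library gave 1 to 2 rises and 0 to 1 falls in this list, and each of the 3 other scalings gave 1 fall. The third rise beside Bmp4 and Smad3 was Grem1 (2 transcripts, 0.48). Its call was lost whichever D2 library was left out (up to 0.13) and with the D2 libraries alone (0.14). Smad3, a TGF beta effector, rose from 102, 116 and 111 TPM to 157, 162 and 146 (0.50, adjusted p = 0.009, with the D2 libraries alone 0.053). Outside that list, Bmper, a secreted BMP regulator, rose from 17.6, 19.7 and 19.9 TPM to 43, 41.5 and 36.5 (1.04, adjusted p = 0.0011). Of 20 Notch genes 1 was called (5%, near the 4.75% of all tested genes). It was the target Hey1, which read 33.3, 38.3 and 38.4 TPM in siControl and 19.8, 19.7 and 16.7 in siKctd10 (-0.94, adjusted p = 0.013), lost without siControl 2 (0.053) or siKctd10 3 (0.051).

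Of 19 insulin-like growth factor genes 3 rose and 2 fell. Igf2, a growth factor that myoblasts make for themselves (5 transcripts), fell from 23.6, 29.7 and 33.2 TPM to 9.39, 13.2 and 11.9 (-1.25, SE 0.19, limma adjusted p = 0.0068). H19, the imprinted non-coding RNA beside it (3 transcripts), read 972, 1109 and 1008 TPM in siControl and 669.8, 793 and 733 in siKctd10 (-0.49, adjusted p = 0.012), lost without siControl 2 (0.053) and with the D2 libraries alone (0.066). Irs1, the insulin receptor substrate (2 transcripts), rose from 121, 135 and 123 TPM to 174, 183 and 162 (0.45, adjusted p = 0.009, with the D2 libraries alone 0.066).

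Of 41 semaphorins, ephrins, their receptors and other cues 7 rose and none fell (median 0.21), and leaving out 1 D2 library gave 4 to 7 rises. Nrp2, a semaphorin co-receptor (8 transcripts), rose from 69.3, 61.1 and 71.9 TPM to 135, 118 and 148 (0.97, limma adjusted p = 0.0078). Epha4 (2 transcripts), an ephrin receptor, rose from 7.34, 9.18 and 8.37 TPM to 20.4, 16.6 and 17.1 (1.03, adjusted p = 0.0029). Sema3d, a secreted semaphorin (3 transcripts), and Slit2, a repulsive cue (8 transcripts), rose by 0.89 (adjusted p = 0.006) and 0.80 (adjusted p = 0.0027). The 4 genes all have several transcripts, so their levels are less secure than those of single-transcript genes.

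Of 43 genes of ER stress and ATF4 6 rose and none fell, with 35 above 0 and a median of 0.29 (0.19 to 0.23 under the other scalings). Atf4 itself (2 transcripts) read 532, 528 and 545 TPM in siControl and 748, 837 and 785 in siKctd10 (0.56, SE 0.06, limma adjusted p = 0.0013). Sesn2, a leucine sensor that is induced by ATF4 and p53, rose from 2.11, 2.76 and 4.68 TPM to 13.6, 13.8 and 10.6 (1.74, adjusted p = 0.0034). Cth, an enzyme of cysteine synthesis, rose from 2.41, 3.16 and 2.88 TPM to 6.89, 5.42 and 7.63 (1.00, adjusted p = 0.006, with the D2 libraries alone 0.055). The lowest siKctd10 library exceeded the highest control in all 3. Chac1, which degrades glutathione (0.80), was called but lost whichever library was left out (up to 0.098), and Mthfd2, of mitochondrial folate metabolism (0.68), was lost without siControl 1 (0.063), siKctd10 1 (0.071) or siKctd10 2 (0.061) and with the D2 libraries alone (0.12).

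Of 31 heat shock proteins and chaperones 2 fell and none rose (6.45% called, near the 4.75% of all tested genes). The 2 are small heat shock proteins of muscle. Hspb3 fell from 4.27, 3.46 and 4.11 TPM to 1.11, 1.27 and 0.647 (-1.31, limma adjusted p = 0.001), and Hspb7 from 4.65, 5.13 and 6 to 2.62, 1.94 and 1.56 (-1.05, adjusted p = 0.006, with the D2 libraries alone 0.059 and with a pseudocount of 0.1 0.15). Of 24 interferon and antigen presentation genes 4 fell and 1 rose. Gbp2, an interferon-induced GTPase, rose from 18.5, 19.7 and 17.4 TPM to 40.5, 31.3 and 30 (0.83, adjusted p = 0.009, with the D2 libraries alone 0.061), while B2m, the light chain of MHC class I, was called lower (-0.59, adjusted p = 0.032), lost without siControl 1 (0.12), siControl 2 (0.082), siKctd10 1 (0.07) or siKctd10 3 (0.096) and with the D2 libraries alone (0.11).

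Of 45 genes of DNA replication and S phase 1 rose and none fell, and of 43 genes of mitosis 1 fell. The gene that rose was Rrm1, the large subunit of ribonucleotide reductase, from 63.3, 70.6 and 68.7 TPM to 128, 112 and 105 (0.75, limma adjusted p = 0.0037). Gas1, a membrane protein linked to growth arrest, rose from 243, 234 and 244 TPM to 440.5, 415 and 371 (0.76, adjusted p = 0.0059). Of 29 tubulin, stathmin and microtubule genes 7 fell and none rose (median -0.25), but leaving out 1 D2 library gave 0 to 2 falls. The neuronal tubulin Tubb3 stood at 96.2 to 114 TPM in siControl and 75.6 to 90.3 in siKctd10 (-0.39, adjusted p = 0.048), lost without siControl 1 (0.15), siControl 3 (0.13), siKctd10 1 (0.13) or siKctd10 3 (0.15) and with the D2 libraries alone (0.16). Of 31 cholesterol genes 2 rose, against 9 at D0.

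Among 7 adipocyte markers, Cebpa, a transcription factor of fat cells and of other lineages, rose from 13.6, 11.5 and 10.5 TPM to 26, 23.7 and 26 (1.03, SE 0.14, limma adjusted p = 0.0034). Lpl, lipoprotein lipase, which muscle also makes (4 transcripts), read 9.41, 21.4 and 19.2 TPM in siControl and 39.8, 33.1 and 43.7 in siKctd10 and was not called (1.24, adjusted p = 0.081), but was called by voom (0.046). Pparg, the master regulator of fat cells (5 transcripts), was not called (0.02, adjusted p = 0.98), and Adipoq, Plin1, Fabp4 and Cidec, which define mature fat cells, were listed at 0 in every library.

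The largest changes were ranked among single-transcript genes, leaving out ribosomal protein genes and genes with model names (Gm, Rik or LOC). One gene left out, 4833427G06Rik, rose by 1.48 (limma adjusted p = 0.0058). The largest ranked rises were those of Cxcl5, Pdk4 and then Edn1, the vasoconstrictor endothelin 1, from 1.99, 2.94 and 2.12 TPM to 6.48, 9.91 and 7.59 (1.42, adjusted p = 0.0043). C1rl, a complement protease, rose by 1.36, Cdhr1, a cadherin of photoreceptors, by 1.31, Pi15, a secreted protease inhibitor, by 1.24, and Tigit, an immune receptor, by 1.19 (adjusted p of 0.0045, 0.0024, 0.00046 and 0.0059). Dhrs9, a retinol dehydrogenase, rose by 1.14 and Fbln7, a matrix fibulin, by 1.08. Best1, a chloride channel, was called (1.08) but not with the D2 libraries alone (0.06), a pseudocount of 0.1 (0.17) or voom (0.089). Aox1, aldehyde oxidase (1.15, adjusted p = 0.027), lost its call without each library but siKctd10 3 (up to 0.086).

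The largest falls of single-transcript genes were ranked by the same rule. After Ccn3 and Cxcl13 they included Sbk2, a kinase of the SH3-binding family, from 5.95, 4.36 and 7.48 TPM to 0.389, 1.8 and 0.311 (-1.98, limma adjusted p = 0.004, with the D2 libraries alone 0.064). Gap43, a protein of neuronal growth cones, fell from 139.8, 116 and 119 TPM to 37.1, 43.4 and 41.3 (-1.60, adjusted p = 0.00065). Apobec2, a muscle protein of the deaminase family, fell from 34.3, 35 and 31.8 TPM to 12.6, 14.7 and 12 (-1.30, adjusted p = 0.0054, with a pseudocount of 0.1 0.11). Controls exceeded every siKctd10 library in the 3 genes. Ly6c2, a surface antigen, was called lower (-1.51, adjusted p = 0.016), lost without siControl 3 (0.058), siKctd10 2 (0.058) or siKctd10 3 (0.053). Hdc, histidine decarboxylase (-1.79, adjusted p = 0.015), was lost without siControl 1 (0.063) and with the D2 libraries alone (0.094).

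The D0 comparison, whose libraries are separate from those of D2, called 319 genes (2.44%). Of the genes higher at D2, 78 were also higher at D0 (21.1% of the D2 list and 40.4% of the D0 list), and of those lower at D2, 42 were lower at D0 (16.7% and 33.3%). Another 4 genes were called in opposite directions. Across all 13074 genes the differences of the 2 days correlated with r = 0.20, and across 3418 single-transcript genes with r = 0.34, a description over genes, which are not independent. The sign was the same on both days for 478 of the 621 genes called at D2 (77%) and for 8152 of all genes (62.4%).

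The difference between the days was tested by the interaction of siRNA and day, which called 97 genes (0.742%), 49 more positive at D2 (0.375%) and 48 more negative (0.367%). Of these, 70 were called at D2 (11.3% of the 621). Leaving out 1 of the 12 libraries gave 52 to 82 interaction calls, and fewest without D0 siControl 1 (52), D2 siControl 2 (55), D2 siKctd10 1 (57), D0 siKctd10 1 (58) and D2 siControl 3 (62). Ccn2 reversed: siKctd10 raised it at D0, from 51.4, 52.5 and 48.1 TPM to 90.1, 87.8 and 79.5, and lowered it at D2 (interaction -1.56, limma adjusted p = 0.00071). Acta1 was higher at D0 (0.94, adjusted p = 0.017), at 102, 72.9 and 87.2 TPM in siControl and 196, 175 and 135 in siKctd10, with an interaction of -1.53 (adjusted p = 0.016). For H19 the differences were 0.44 at D0 and -0.49 at D2 (interaction -0.93, adjusted p = 0.0097). These 3 interactions held in each of the 12 fits without 1 library.

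Other genes differed more at D2 than at D0. Kcnj2 (interaction 1.39), Cxcl5 (1.59), Pdk4 (1.27), Sfrp2 (1.63) and Col12a1 (1.01) had higher differences than at D0, where these were 0.14, 0.21, 0.25, -0.26 and 0.30, none of which passed the test. The interaction was negative for Ccn3 (-1.60), which had also fallen at D0 (-0.85), and for Dpt (-2.15) and Reep1, an ER-shaping protein (-1.14), which were not called at D0 (0.20 and -0.07). The interactions of these 8 genes held in all 12 fits without 1 library. Tmod1 (-3.54), Myh8 (-1.53) and Casq1 (-1.59) held in those fits but not with voom (0.088, 0.66 and 0.49), and with a pseudocount of 0.1 Myh8 and Casq1 were lost too (0.066 and 0.33). At D0 all 3 were near 0 in these cells, as Tmod1 shows with 0.271 to 0.793 TPM. Cxcl13 (-1.75) lost its interaction without siControl 1 (0.054) or siControl 2 (0.054) of D2, with a pseudocount of 0.1 (0.06) and with voom (0.068). Cdhr1 (1.48) lost its own without siControl 1 of D0 (0.054) or siKctd10 1 of D2 (0.058), and Itga4 (-1.29) in 5 of the 12 such fits (D0 siControl 1 and 2, D2 siControl 2 and 3 and D2 siKctd10 1, up to 0.059) and with a pseudocount of 0.1 (0.076).

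Other interactions came from larger differences at D0. Ube2j1 (1.16, limma adjusted p = 0.0063) and Mboat1 (1.34, adjusted p = 0.021), both with the siKctd10 seed match shown above, were lower by more at D0 than at D2. That of Ube2j1 held in all 12 fits without 1 library, and that of Mboat1 was lost in 5 (D0 siControl 1 and 3, D0 siKctd10 1 and D2 siControl 2 and 3, up to 0.059). Cavin2, a caveolar coat protein, rose at D0 (0.93) and was not called at D2 (-0.18, adjusted p = 0.35, interaction -1.11). Prss37, of the serine protease family, fell at D0 (-2.02), where siControl held 6.87 to 10.5 TPM, and was at 0 to 0.14 TPM in every D2 library (interaction 2.08, lost with a pseudocount of 0.1, 0.069, and with voom, 0.12).

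**Figure D4:**
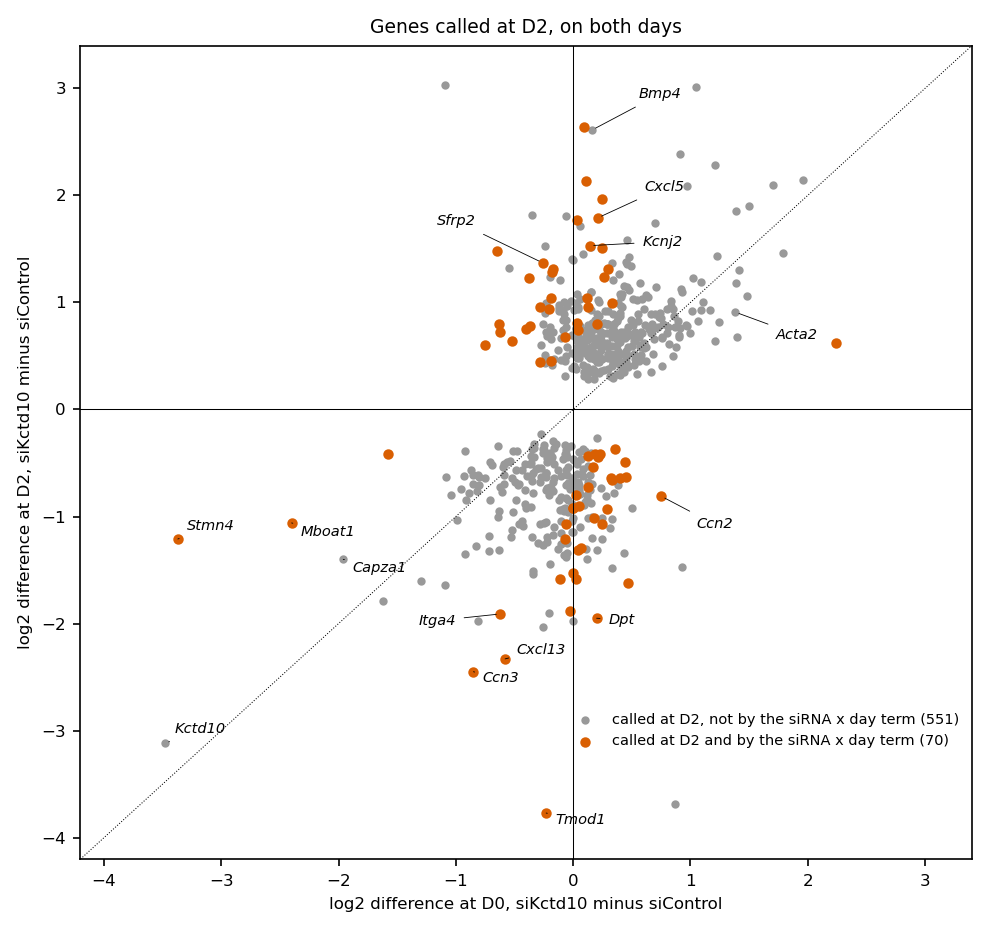
Log2 difference with siKctd10 at D0 (x axis) against that at D2 (y axis) for the 621 genes called at D2; the dotted line marks equal differences. Orange points are the 70 genes also called by the interaction of siRNA and day. Kctd10 and Capza1 were low on both days, Ccn2 was high at D0 and low at D2, and Cxcl5, Kcnj2 and Sfrp2 were near 0 at D0 and high at D2.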

How the data were processed

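Poly(A) RNA of 12 C2C12 libraries was measured, in 4 groups of 3 by siRNA and day as the labels give them. The deposited files are StringTie output, 1 per library, with coverage and TPM of 63759 known mouse transcripts on mm10. StringTie is version 1.3.3b per the file headers and 1.1.3 per the submitters' processing notes, which also name HISAT, SAMtools and DESeq2 without saying what each was used for. The authors scaled TPM to sum to 1000000 in each library, so a higher share of some genes lowers all others. The deposited transcripts carry no gene name, and 87.9% were matched to GENCODE vM21 (GRCm38) on the same strand, 42608 by identical introns and 13465 by exon overlap of at least 50%. The unmatched ones held 3.83 to 4.64% of TPM. TPM was summed per gene. Estimates of how reads divide among overlapping transcripts can jump between libraries, so genes with 1 transcript sharing no exon base with another were preferred.

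Genes that reached a TPM of 1 in 3 or more of the 12 libraries were fitted as log2(TPM + 1) with limma 3.58.1 in R 4.3.3 (mean-variance trend, robust, 4 group means, 12 libraries), with Benjamini-Hochberg adjustment over all 13074 genes and a threshold of 0.05 (two-sided). Read pairs were estimated from coverage and length at 202 bases per pair. These estimates cover counting only in part, and precision rests on 3 libraries per group. Alternatives were another pseudocount, other filters, median-ratio and quantile scaling, voom, the D2 libraries alone, single-transcript genes alone, a replicate block and leaving out each library. Leaving out the siKctd10 libraries numbered 3 was added after seeing the data.

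The members and gene lists were chosen with earlier results of these data known. The genes named are a fixed set of muscle, actin and target genes, the 12 largest rises and 12 largest falls among single-transcript genes with a mean TPM of at least 5, up to 6 called members per list, and up to 5 interaction genes per sign. The ranking of rises and falls left out ribosomal protein genes and genes with model names (Gm, Rik or LOC). Named after their values were seen were Mylpf, Myl1, Lpl, Pparg, Rhob, Cul3, Tnfaip1, Kctd13, Actr3, Eps8 and the genes with a seed match other than Cd164. Promoters are RefSeq sequences of GRCm38.p6. Some named items and the results that need them are not reported here.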

Additional observations from a re-analysis of the deposited data

Results flagged for a closer look

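The differences at D2 and D0 were unlike in 97 genes by the interaction of siRNA and day in limma (0.742% of all tested). Among the genes named above, the D2 log2 difference minus the D0 difference was negative for Tmod1 (-3.54), Dpt (-2.15), Smpx (-2.09), Cxcl13 (-1.75), Ccn3 (-1.60), Casq1 (-1.59), Ccn2 (-1.56), Acta1 (-1.53), Myh8 (-1.53), Hspb3 (-1.35), Itga4 (-1.29), Reep1 (-1.14), Cavin2 (-1.11), Sntb1 (-1.08), Ldb3 (-0.99), H19 (-0.93), Pmaip1 (-0.65) and Gatm (-0.64). It was positive for Prss37 (2.08), Sfrp2 (1.63), Cxcl5 (1.59), Cdhr1 (1.48), Col8a2 (1.43), Kcnj2 (1.39), Mboat1 (1.34), Pdk4 (1.27), Lgr5 (1.24), Ube2j1 (1.16), Col12a1 (1.01), Pi15 (0.97), Bmper (0.92), Piezo2 (0.78), Fzd1 (0.74) and Lrp4 (0.66). The calls of Sntb1, Pmaip1, Ldb3, Gatm, Col8a2, Pi15, Bmper, Piezo2, Fzd1 and Lrp4 were lost in 6 to 12 of the 12 fits without 1 library (up to 0.12), those of Smpx without D0 siControl 1 or D2 siControl 2 (0.051 each), and that of Lgr5 without D0 siControl 1 (0.051). With a pseudocount of 0.1 and with voom, in that order, those of Smpx (0.18 and 0.16), Lgr5 (0.097 and 0.061) and Hspb3 (0.12 and 0.14) were lost too.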

How the results depend on the processing

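No gene called at D2 changed sign under any alternative, but only the other scalings could have changed one, since the groups of called genes did not overlap. The 621 calls at D2 became 252 with the D2 libraries alone (208 of them among the 621), 360 when single-transcript genes were fitted and adjusted alone, and 315 to 415 when 1 D2 library was left out. Under the other filters, scalings and settings, apart from the replicate block given below, the count lay between 443 and 672. The 97 interaction calls became 62 with a pseudocount of 0.1, 63 without the siKctd10 libraries numbered 3, and 52 to 82 without 1 library. The remaining 11.3% of Kctd10 was 10.8 to 12.2% without 1 D2 library. Within a day, replicate numbers showed no pairing: deviations of same-numbered siControl and siKctd10 libraries correlated by -0.02 to 0.03. Across the days, same-numbered siKctd10 libraries correlated by 0.05 to 0.2 and differently numbered ones by -0.14 to 0.06. For siControl libraries these values were 0 to 0.02 and -0.04 to 0.04. The main fit, the interaction included, treated all libraries as unpaired. With a replicate block all the same, 94 genes were called at D2 (89 among the 621) and 2 by the interaction. Low genes near a TPM of 1 and genes with several transcripts are the least certain. The causes of these changes were not tested.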

Other observations

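Further lists at D2, with 4.75% of all tested genes called, were as follows. Of 46 subunits of oxidative phosphorylation 1 fell (Cox8a) and the median was -0.20. Of 39 proteasome and COP9 signalosome genes 1 rose (Psmc3), and of 36 lysosome and autophagy genes 1 rose (Gabarapl1). Of 21 genes of the dystrophin-glycoprotein complex, which anchors the muscle membrane, 2 fell (Cav3 and Sntb1) and 16 lay below 0. Of 21 splicing regulators of muscle 2 fell, Rbm24 and Rbfox1. Of 25 p53 targets 2 rose, Sesn2 and Trp53inp1, and 1 fell, Pmaip1, with a median of 0.29. Leaving out 1 D2 library gave 0 to 1 falls in the dystrophin-glycoprotein list and 0 to 2 in the splicing list. Of the genes named here, Sesn2 alone passed in every such fit; the others were lost without 2 to 6 of the 6 D2 libraries in turn (adjusted p up to 0.13), and with the D2 libraries alone Sntb1 (0.084), Pmaip1 (0.071), Trp53inp1 (0.1), Rbfox1 (0.14), Psmc3 (0.15) and Gabarapl1 (0.12) were not called.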
